A study of Solanum lycopersicum with 8 samples.

Results

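Circadian clock genes were followed in tomato (Solanum lycopersicum, cultivar M82) in 2 tissues: gland cells isolated from type VI trichomes, the leaf hairs with a secretory head, and leaves scraped free of their trichomes. The 7 genes were taken by their IDs, of 34725 gene IDs in the count files, and all 7 were found and had enough counts to be tested. They are listed as LHY (Solyc10g005080), LNK2 (Solyc01g068560), a PRR7-like gene (Solyc10g005030), 2 copies of GIGANTEA, abbreviated GI (Solyc04g071990 on chromosome 4 and Solyc12g056650 on chromosome 12), TOC1 (Solyc03g115770) and EID1 (Solyc09g075080). These names come with the list of IDs; the deposited files give no gene names, and the reference table used here holds none of the 7. The chromosome is the one written in each ID, and the PRR7-like gene and LHY lie close together there, with 3 IDs of the files between them.

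Each tissue has 4 libraries, numbered by sampling time 1 to 4 and called collections here. Plants were grown for 5 weeks at 28 °C and 250 µE. The leaf libraries are labelled with the genotype af mutant (anthocyanin free) and the trichome libraries with complemented line #4, whereas the protocols in the labels describe the same plants as the source of the shaved leaves and of the trichomes; both statements cannot hold, and if the genotype labels do, tissue and genotype cannot be told apart. The labels give neither the hour of sampling nor the photoperiod, so no library can be placed at a time of day from its labels.

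The plant clock is a loop of repressors that take turns over the day. LHY, a MYB factor made around dawn, represses evening genes such as TOC1 and GI. PRR7 and its relatives repress LHY during the day, TOC1 represses it in the evening, and GI protects an F-box protein that removes TOC1; these roles are best known from Arabidopsis. LNK proteins are coactivators that work with morning MYB factors of the RVE group in Arabidopsis, and EID1 is an F-box protein that acts on phytochrome A signalling there. Cultivated tomato carries altered alleles of EID1 and LNK2 that delay or slow its daily rhythm.

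Levels are read counts scaled to library size (CPM) with TMM factors, and they are compared between libraries for 1 gene at a time, not between genes. Gene totals were 19209754 to 34941715 counts in leaf and 24596280 to 26514416 in trichome libraries, and the smallest count behind any of the 56 values of the 7 genes was 152. The 3 mesophyll markers together held 16484 to 24409 CPM in the leaf libraries. In the trichome libraries they held 1239 to 1688 CPM, or 6.11% to 8.33% of the leaf mean. Taken singly they differed widely, with trichome means at 6.71%, 11.5% and 0.114% of their leaf means, so the sum gives no share of mesophyll cells. The 3 gland markers held 8773 to 15278 CPM in trichome and 14.4 to 90.0 CPM in leaf. Markers of other epidermal cells overlapped between tissues (371 to 583 and 369 to 622 CPM), and those of other glandular hairs were at 0.490 to 8.91 CPM in leaf against 87.7 to 131 CPM in gland libraries. Of the 12 markers, 1 had no count in 1 leaf library. In bulk RNA, fewer cells of a type and less RNA per cell cannot be told apart.

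**Figure D1:**
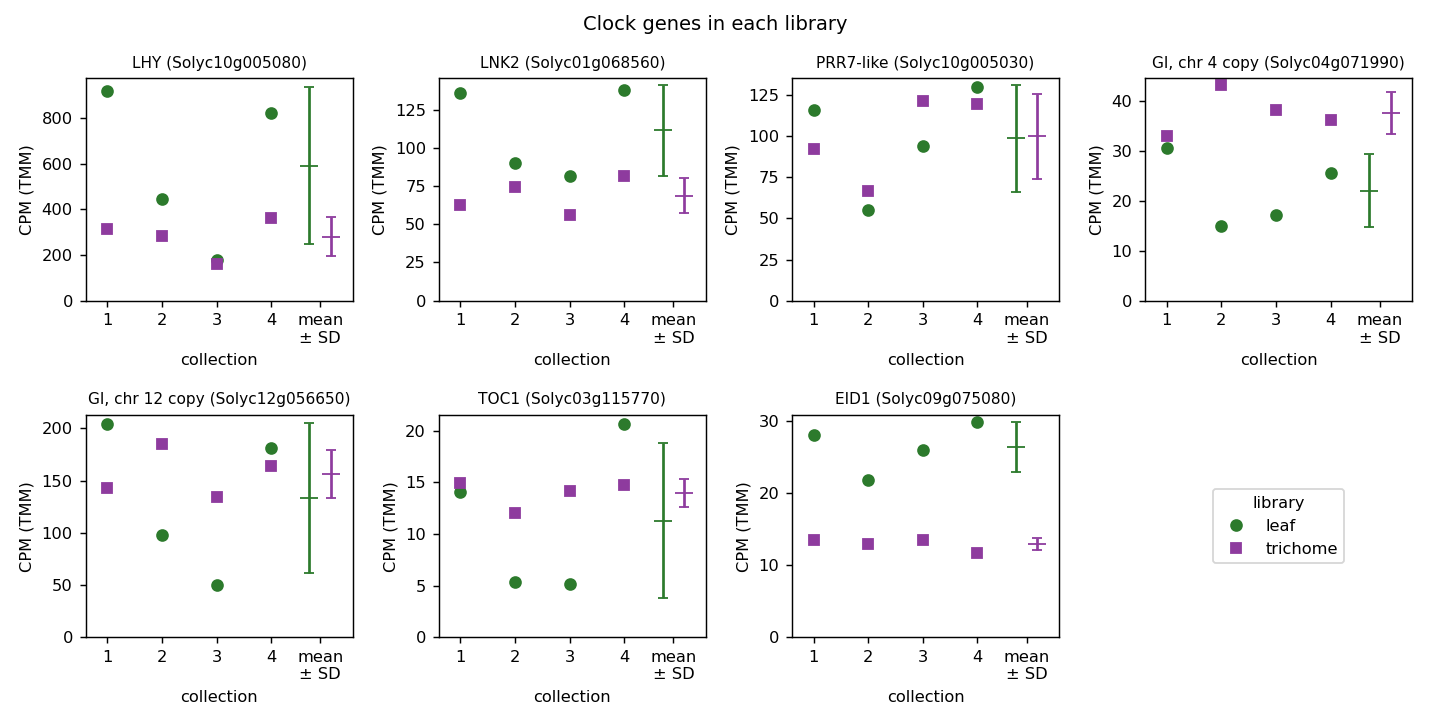
Level of each of the 7 clock genes (TMM-scaled CPM, linear axes from 0) in the 4 leaf (circles) and 4 trichome (squares) libraries by collection, with the mean ± SD of each tissue at the right. EID1 is lower in every trichome library than in any leaf library, the GI copy on chromosome 4 is higher, and LHY ranges from 179 to 921 CPM in leaf.

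The comparison of the tissues asks which clock transcripts differ between gland cells and the leaf below them. EID1 and LNK2 were lower and the GI copy on chromosome 4 was higher in trichome, while LHY, the other GI copy, TOC1 and the PRR7-like gene did not pass the test. That makes 1 of 7 genes called higher and 2 called lower at an adjusted p under 0.05 (edgeR quasi-likelihood test, Benjamini-Hochberg over 20409 genes). Of all tested genes, 33.9% were called higher and 38.5% lower, and 72.4% either way, beside 3 of the 7 clock genes; that difference was not tested. The median log2 fold change of the 7 genes was 0.02, beside -0.09 over all tested genes, and the median size of the change was 0.70, beside 1.17.

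Of the morning genes, LHY stood at 921, 445, 179 and 823 CPM in leaf collections 1 to 4 and at 316, 284, 160.2 and 362 CPM in the trichome libraries. Leaf was higher than trichome in all 4 collections, but the tissues overlapped, because leaf 3 fell among the trichome values. The log2 fold change was -1.08 (SE 0.48, edgeR adjusted p = 0.0683). With the collection as a block it was -0.88 and passed the test (adjusted p = 0.0245), and it also passed without leaf replicate 3 (log2 -1.40, adjusted p = 0.0075). The difference ran from -1.54 in collection 1 to -0.16 in collection 3 on the log2 scale.

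LNK2 had 136, 90.4, 81.4 and 138 CPM in leaf and 62.7, 74.4, 56.3 and 81.9 CPM in trichome. Trichome was lower in every collection, although the highest trichome library lay just above the lowest leaf library. The log2 fold change was -0.70 (SE 0.22, edgeR adjusted p = 0.0168). The call was lost without trichome replicate 3 (adjusted p = 0.0512) and without collection 1 (log2 -0.54, adjusted p = 0.111). LHY and LNK2 deviated from their tissue means with the same sign in 7 of 8 libraries. The evening gene GI on chromosome 12 did so in 7 of 8 libraries with LHY, to which it lay closer (root mean square difference 0.285, against 0.497 for LNK2), and in 8 of 8 with LNK2.

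The PRR7-like gene, of the daytime group, had 116, 55.0, 93.9 and 130.1 CPM in leaf and 92.4, 66.6, 122 and 119.9 CPM in trichome. The values of the tissues overlapped throughout, and 2 of 4 collections were higher in trichome. Its log2 fold change was 0.02 (SE 0.29, edgeR adjusted p = 0.951), and its sign changed with the scaling.

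Of the evening genes, the GI copy on chromosome 4 had 30.6, 15.0, 17.2 and 25.6 CPM in leaf and 33.1, 43.2, 38.2 and 36.2 CPM in trichome. Every trichome library was above every leaf library, as for 31.4% of all tested genes. The log2 fold change was 0.77 (SE 0.23, edgeR adjusted p = 0.0133), with the call lost without collection 2 (log2 0.55, adjusted p = 0.0745) or collection 3 (log2 0.65, adjusted p = 0.0692). The gap was 0.11 in collection 1 and 1.49 in collection 2 on the log2 scale.

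The copy on chromosome 12 stood at 204, 98.0, 49.7 and 181 CPM in leaf and at 143, 185, 134 and 164 CPM in trichome. The leaf values enclosed all trichome values, and the log2 fold change of 0.23 (SE 0.39) did not pass edgeR's test (adjusted p = 0.607). In collections 2 and 3 this copy was higher in trichome and in collections 1 and 4 it was higher in leaf. How the authors' counting divided reads between the related copies is not given, so their separate levels are uncertain. The log2 ratio of the chromosome 12 copy to the chromosome 4 copy was 2.71, 2.67, 1.502 and 2.80 in leaf and 2.09, 2.08, 1.80 and 2.16 in trichome. It was lowest in collection 3 in both tissues, and collections 4, 1 and 2 followed each other from the highest down in both. The order of collections 1 and 2 rests on small differences (2.71 and 2.67 in leaf, 2.09 and 2.08 in trichome).

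TOC1 had 14.0, 5.33, 5.18 and 20.7 CPM in leaf and 14.9, 12.01, 14.2 and 14.7 CPM in trichome. Leaf collections 2 and 3 lay below all trichome libraries and leaf 4 above them. The log2 fold change was 0.31 (SE 0.43, edgeR adjusted p = 0.534). It was 0.77 without leaf replicate 4 (adjusted p = 0.0839), and 0.060 and 0.048 without leaf replicates 2 and 3.

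EID1, which links the clock to light, had the smallest SD of the 7 genes in both tissues with TMM factors; with library size alone its trichome SD (0.27) was above those of LNK2, both GI copies and TOC1. It had 28.0, 21.8, 25.9 and 29.9 CPM in leaf and 13.5, 12.9, 13.5 and 11.7 CPM in trichome. Every trichome library was below every leaf library, as for 36.9% of all tested genes. Its log2 fold change was -1.03 (SE 0.14, edgeR adjusted p = 1.17e-04), which leaves 48.9% of the leaf level in trichome, and it kept its call in all 20 alternatives run.

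**Figure D2:**
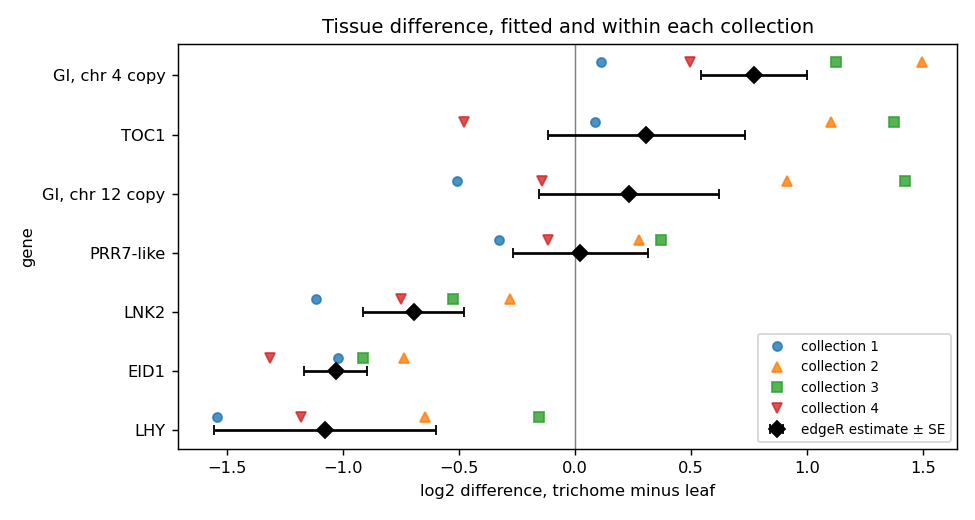
Log2 difference between trichome and leaf for the 7 clock genes; diamonds are the edgeR estimates with their standard errors, and the small symbols are the differences within each collection, from log2(CPM + 0.5). LHY, LNK2 and EID1 lie below 0 in all 4 collections and the GI copy on chromosome 4 above 0 in all 4, while the other GI copy, TOC1 and the PRR7-like gene have collections on both sides.

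The numbered collections allow a second question: whether leaf and trichome libraries with the same number sat at a like phase of the day. Collection 3 had the lowest LHY in both tissues, 1.47 below the leaf mean and 0.74 below the trichome mean on the log2(CPM + 0.5) scale. It was also lowest in both tissues for LNK2 and for the GI copy on chromosome 12. The PRR7-like gene was lowest in collection 2 in both tissues, at -0.77 and -0.54 from the mean. In all, 4 of 7 genes had the same lowest collection in both tissues, beside 30.6% of all tested genes. The same highest collection was shared by 1 of 7 genes (28.9% of all), and the full order by 0 of 7 (5.08% of all). In leaf, collections 1 and 4 were above 2 and 3 for each of the 7 genes, morning, daytime and evening ones alike. A high leaf level alone therefore does not place a library at a phase.

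**Figure D3:**
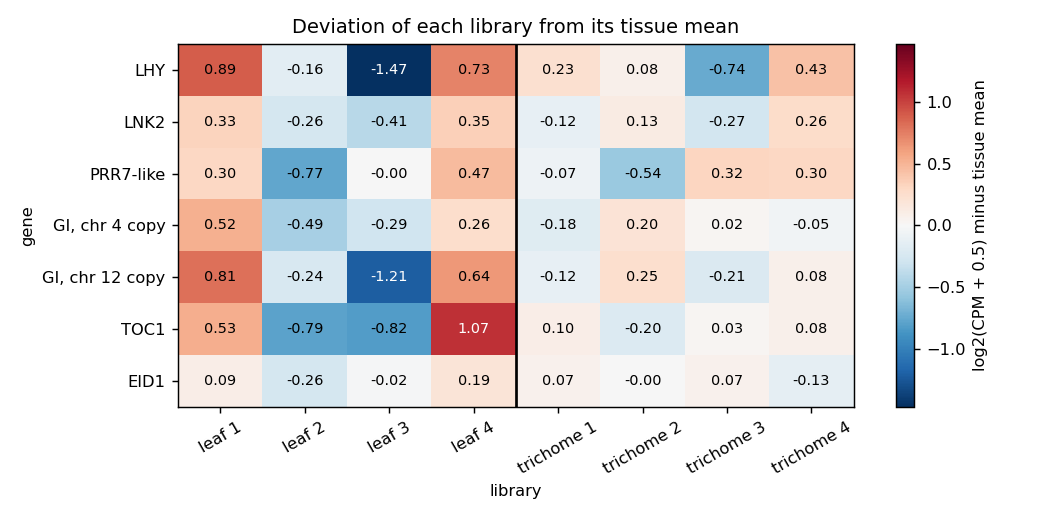
Deviation of each library from its tissue mean, in log2(CPM + 0.5), for the 7 clock genes (rows) in the leaf and trichome libraries (columns); red is above and blue below the mean. Leaf 3 and trichome 3 are the lowest for LHY (-1.47 and -0.74), and leaf 2 and trichome 2 for the PRR7-like gene (-0.77 and -0.54).

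A fit with tissue and collection tested whether same-numbered libraries moved together beyond the residual spread. It fits tissue and 3 collection terms to only 8 libraries, so a gene not called may still share a change. None of the 7 genes passed: over all 20409 genes, 0 (0%) were called by edgeR's quasi-likelihood F test of the 3 collection terms, and 1407 (6.89%) had an unadjusted p under 0.05. LHY and the PRR7-like gene were among these 1407, LHY with a collection range of 1.67 on the log2 scale (adjusted p = 0.646) and the PRR7-like gene with 1.05 (adjusted p = 0.667). Without collection 3 the range of LHY was 0.61 (adjusted p = 0.981). Without collection 2 that of the PRR7-like gene was 0.25 (adjusted p = 0.957). DESeq2 called 451 genes in place of 0, LHY among them (adjusted p = 0.0108), and limma-voom called 0, with LHY at an adjusted p of 0.293.

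Ratios within a library do not depend on its scaling, apart from the small added constant. The difference between LHY and the mean of the GI copies, in log2(CPM + 0.5), was 3.53, 3.51, 2.59 and 3.58 in leaf and 2.19, 1.66, 1.16 and 2.22 in trichome. Collection 3 had the lowest ratio in both tissues, and the order of all 4 collections was the same in both, 4 above 1 above 2 above 3. Leaf collections 1, 2 and 4 differed by less than 0.1, so their order rests on small differences. Against TOC1 the order was 2, 1, 4, 3 in leaf and 4, 2, 1, 3 in trichome. Against the chromosome 12 copy of GI alone, the leaf ratio moved over a range of only 0.35, and the leaf order was 4, 2, 1, 3.

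Against the PRR7-like gene, a partner chosen after seeing the data, the difference was 2.98, 3.00, 0.92 and 2.66 in leaf and 1.77, 2.08, 0.40 and 1.59 in trichome. The order was 2, 1, 4, 3 in both tissues, and collection 3 stood apart from the other collections by more than 1 log2 unit in each. These ratios all rest on the same LHY values. With any tested gene as the partner, collection 3 was lowest in both tissues for 95.1% of partners and the full order was the same for 23.1%. LHY was lower in trichome relative to GI in every collection, by 1.34, 1.85, 1.43 and 1.36 log2 units.

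**Figure D4:**
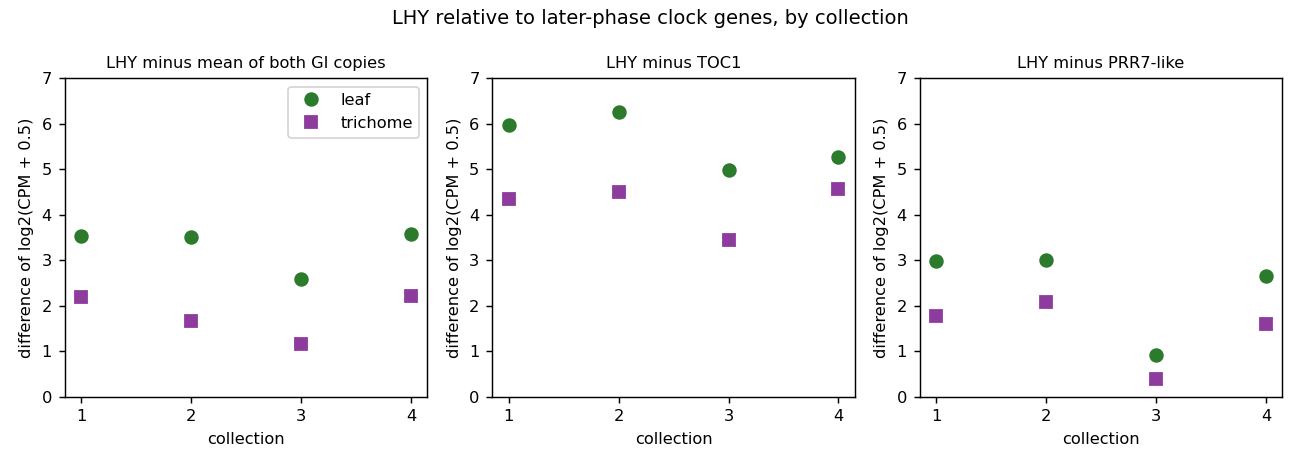
Difference in log2(CPM + 0.5) between LHY and the mean of both GI copies, TOC1 or the PRR7-like gene (panels) in leaf (circles) and trichome (squares) by collection; offsets between panels also reflect gene length. Collection 3 is the lowest in both tissues in each panel, and leaf lies above trichome in every collection.

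Over the 7 genes together, the root mean square distance between the deviations of a leaf and a trichome library was 0.443 to 0.596 for the 4 same-numbered pairs (mean 0.524) and 0.438 to 0.979 for the 12 others (mean 0.698). The ranges overlap. The largest distances all involved collection 3. Leaf 3 lay at 0.850, 0.906 and 0.979 from trichome 1, 2 and 4. Trichome 3 lay at 0.810, 0.605 and 0.799 from leaf 1, 2 and 4. Apart from collection 3, the same-numbered pairs had 0.443 to 0.575 and the others 0.438 to 0.689. The difference in means thus rests largely on collection 3. For leaf 2, 3 and 4 the nearest trichome library was the same-numbered one, and for leaf 1 it was trichome 4. Seen from the trichome side, the nearest leaf library was the same-numbered one for trichome 2 and 3, while it was leaf 2 for trichome 1 and leaf 1 for trichome 4. Over all tested genes the same-numbered pairs had a mean distance of 0.476 and the others 0.531, with overlapping ranges (0.404 to 0.627 and 0.395 to 0.696).

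The summed level of the mesophyll markers shared part of the order of LHY. It was 22441, 16484, 17713 and 24409 CPM in leaf. Collections 1 and 4 were thus the high ones, as they were for LHY and for each other gene of the 7. Unlike for LHY, collection 2 was the lowest and not 3. In trichome it was 1365, 1356, 1239 and 1688 CPM, the same order as LHY there, although none of the 3 markers had that order by itself. Their part in the LHY values was not tested. The TMM factors of leaf 1 to 4 were 1.04, 1.24, 1.12 and 0.934, lower in collections 1 and 4. The part of this scaling in the shared leaf pattern was not tested either. LHY had a trichome mean at 47.4% of its leaf mean, beside 6.71%, 11.5% and 0.114% for the 3 markers. The gland markers in leaf had another order, with 64.8, 90.0, 30.2 and 14.4 CPM.

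All 7 genes varied more between the leaf libraries than between the trichome libraries. The SD of log2(CPM + 0.5) was 1.08 in leaf and 0.52 in trichome for LHY, 0.93 and 0.21 for the GI copy on chromosome 12, and 0.95 and 0.14 for TOC1. From the lowest to the highest library TOC1 changed 3.99-fold in leaf and 1.24-fold in trichome. The median SD of the 7 genes was 0.55 in leaf and 0.21 in trichome, beside 0.26 and 0.26 over all tested genes. A wider spread in leaf was found for 50.0% of all tested genes. When libraries were scaled by size only, 5 of 7 genes were wider in leaf (54.8% of all), and the PRR7-like gene (0.39 and 0.42) and EID1 (0.054 and 0.27) were wider in trichome. Without collection 3 the count was 7 of 7, beside 46.6% of all, and without collection 2 it was 6 of 7, beside 44.8%.

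**Figure D5:**
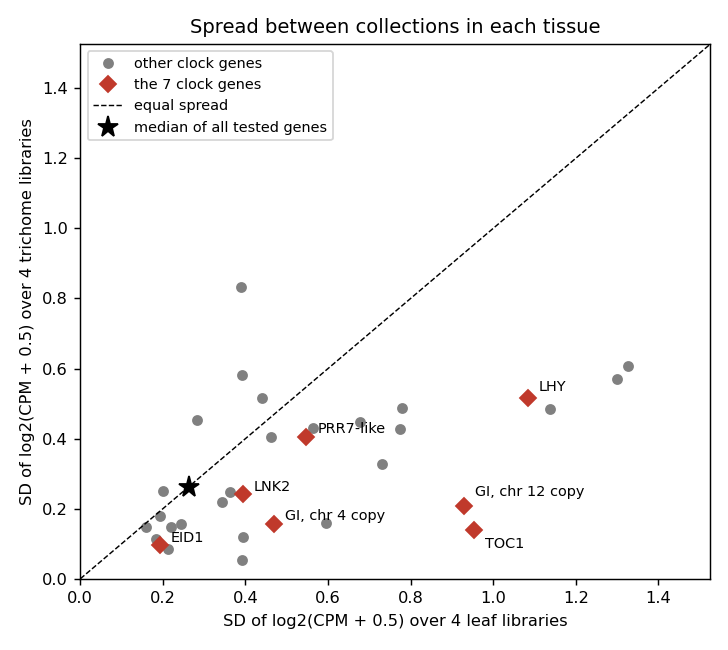
SD of log2(CPM + 0.5) over the 4 leaf libraries (x axis) and the 4 trichome libraries (y axis) for the 7 clock genes (diamonds), 25 other clock genes (grey) and the median of all tested genes (star); the dashed line marks equal spread. All 7 diamonds and 20 of the 25 grey points lie below the line.

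A further 26 IDs assigned to clock and day-length genes were taken as a list: relatives of ELF3, ELF4, LUX, the PRR and RVE families, FKF1, ZTL, LNK1, the CDF repressors, CONSTANS, PIF factors and the florigen-like SP5G. These assignments were made from memory, and the reference table places 3 of the names at the matching chromosome and position: LNK1 (Solyc01g105120), CO1 (Solyc02g089540) and SP5G (Solyc05g053850). The others are counted without a name. Of 25 tested, 3 were called higher and 13 lower in trichome, with 9 not called (12% higher and 52% lower, beside 33.9% and 38.5% over all genes). Their median log2 fold change was -0.80, beside -0.09 over all.

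LNK1, of the same LNK group as LNK2, had 994, 644, 622 and 958 CPM in leaf and 285, 243, 216 and 319.6 CPM in trichome. All trichome libraries were below all leaf libraries (log2 -1.60, SE 0.24, edgeR adjusted p = 2.45e-04). CO1, a CONSTANS relative that in Arabidopsis couples day length to flowering, had 216, 71.3, 87.9 and 179 CPM in leaf and 5.07, 3.78, 2.24 and 3.18 CPM in trichome (log2 -5.28, SE 0.46, edgeR adjusted p = 8.88e-06). SP5G, which delays tomato flowering in long days, had 97.0, 50.5, 78.5 and 136 CPM in leaf and 1, 0, 1 and 3 counts in the trichome libraries, at or under the floor of 3 counts in each. For both genes, as for LNK1, every trichome library was below every leaf library. That held for 10 of the 25 listed genes (40%), beside 36.9% of all tested genes.

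Of the unnamed IDs, Solyc01g005300 was called higher in trichome, with 2.10, 0.841, 1.48 and 1.44 CPM in leaf and 21.7, 12.9, 34.9 and 18.3 CPM in trichome (log2 3.92, edgeR adjusted p = 1.82e-05). Solyc07g043580 was called lower, with 131, 79.2, 144 and 134 CPM in leaf and 16.5, 15.9, 16.2 and 13.7 CPM in trichome (log2 -2.97, edgeR adjusted p = 2.45e-06). Neither had any overlap between tissues. Every trichome library was above every leaf library for 3 of the 25 listed genes (12%), beside 31.4% of all tested genes.

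In the collection test none of the 25 genes passed after adjustment by edgeR or limma-voom and 5 did by DESeq2; by edgeR, 10 (40.0%) had an unadjusted p under 0.05, beside 6.89% of all tested genes. In 8 of these 10 the lowest collection was 3, beside 18.8% of the 1407 genes of the whole table. Without collection 3, 5 of 24 had such a p (20.8%, beside 5.5% of all). The same order of collections in both tissues was found for 4 of 25 genes (16.0%, beside 5.08%), and a wider spread in leaf for 20 of 25 (80.0%, beside 50.0%). SP5G is among the 4, although its trichome order rests on counts of 1, 0, 1 and 3. It and another listed ID, with trichome counts of 1, 0, 0 and 0, are among the 20. For both, the added 0.5 CPM narrows the trichome SD (0.16 and 0.053, beside 0.60 and 0.39 in leaf). Scaled by library size alone, 15 of 25 were wider in leaf, beside 54.8% of all genes, and without collection 2 it was 16 of 25, beside 44.8%. Day-length and clock genes of this list are linked in regulation, so they are not independent of each other or of LHY.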

How the data were processed

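The deposited files hold raw read counts per gene, 1 file per library, made by the authors with HTSeq; Trimmomatic, TopHat2 and SAMtools are also named, without versions, per the submitters' processing notes. The sources used here do not give the genome build, the annotation or the strand setting, so overlapping genes cannot be told apart. HTSeq's summary lines (12.7% to 24.4% of each file) were left out. The main test was that of edgeR 4.0.16, run in R 4.3.3 (TMM, filterByExpr, quasi-likelihood test over all genes). DESeq2 1.42.0 and limma-voom (limma 3.58.1) were alternatives. Only the edgeR fits were also run on simulated data, with an outcome not given here, so the simulation does not bear on DESeq2 or limma-voom. Deviations used log2(CPM + 0.5). A count of 3, the limit a 0 allows, stood for 0.0908 to 0.150 CPM, which covers counting error only.

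Same-numbered libraries were taken as pairs because, per the labels' protocols, leaves and trichomes came from shared plants. If the genotype labels hold instead, the plants were not shared and the pairs rest on the sampling number alone. The block, the collection test and the differences within a collection all use these pairs. Deviations over all tested genes correlated at 0.0836, 0.142, 0.212 and 0.178 within the pairs 1 to 4 and at -0.237 to 0.139 between other leaf and trichome libraries. P-values treat the 4 collections as separate samples, per the labels.

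The 7 genes, the lists and the tests were chosen with earlier results of these data known. The text names the 7 genes, listed genes that pass the reference check (position within 5 percentage points), the markers and the 2 genes of at least 5 CPM in each tissue that deviate most like LHY and like the chromosome 4 GI copy; Solyc01g005300 and Solyc07g043580 were chosen after their values were seen. Promoter sequences were not analysed here.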

Additional observations from a re-analysis of the deposited data

Results flagged for a closer look

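Among 32 groups of 4 libraries examined, where chance gives about 1 in 20, 5 had a library far from the others, and in each it was leaf replicate 3. All 5 are differences in log2(CPM + 0.5) between clock genes, which share members and so are not separate results. LHY minus the mean of the GI copies was 2.59 there and 3.51 to 3.58 in the other leaf libraries. LHY minus the chromosome 4 copy was 3.34 (4.84 to 4.98 in the others), LHY minus the chromosome 12 copy 1.83 (2.17 to 2.18) and LHY minus the PRR7-like gene 0.92 (2.66 to 3.00). The chromosome 12 copy minus the chromosome 4 copy, which does not involve LHY, was 1.502 (2.67 to 2.80).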

How the results depend on the processing

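The counts of genes called between tissues stayed within 1.5 times their main values, from 5259 to 7359 higher and from 5594 to 8849 lower. Scaling by library size alone moved the median of all genes by -0.22 on the log2 scale. EID1 kept its call under every alternative; the losses of LNK2 and the GI copy on chromosome 4 stand in the report. LHY, not called in the main test, passed with upper-quartile factors (adjusted p = 0.0473), library size alone (0.0227), at least 5 CPM in 4 libraries (0.0495), DESeq2 (0.0281), the replicate block (0.0245), without leaf replicate 3 (0.0075) and without collection 3 (0.0143), and over all alternatives its adjusted p ran from 0.0075 to 0.229. The block changed no other call of the 7 genes. The PRR7-like gene, never called, changed sign to -0.041 with RLE factors and with DESeq2, -0.074 with upper-quartile factors, -0.16 with library size alone and -0.076 at 5 CPM in 4 libraries; with a library or collection left out it ran from -0.19 to 0.19. The GI copy on chromosome 12 ran from -0.061, without leaf replicate 3, to 0.55, without collection 1. TOC1, never called, ran from 0.048 to 0.77. The collection test called 451 genes with DESeq2 and 0 otherwise. Other clock genes at an unadjusted p under 0.05 numbered 5 to 10 when a collection was left out. The range of the LHY to GI difference over leaf was 1.00; with the chromosome 4 copy alone it was 1.65, with the chromosome 12 copy 0.35 and with the PRR7-like gene 2.08, and in trichome 1.68 with the last in place of 1.07. Where not stated above, the cause of a change was not tested.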

Other observations

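Among 11223 genes with at least 5 CPM in each tissue, the 2 whose deviations from the tissue means over the 8 libraries lay nearest to those of LHY were Solyc03g031860 and Solyc05g007880. Their root mean square differences from LHY were 0.236 and 0.239 on the log2 scale, beside a spread of 0.735 for LHY itself. Solyc03g031860 had 471, 256, 153 and 464 CPM in leaf and 62.9, 50.5, 39.3 and 70.1 CPM in trichome. Solyc05g007880, which is also among the 26 other clock IDs, had 221, 78.1, 32.3 and 219 CPM in leaf and 65.9, 42.1, 24.1 and 50.6 CPM in trichome. Both were lowest in collection 3 in each tissue, which largely follows from their choice by likeness to LHY and is no separate result. They were called lower in trichome (edgeR log2 -2.59, adjusted p = 2.30e-04, and log2 -1.59, adjusted p = 0.0321).

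The genes nearest to the GI copy on chromosome 4 were Solyc01g098430 and Solyc11g065000, at 0.105 and 0.112 beside a spread of 0.303. Unlike that copy, both were called lower in trichome, by edgeR log2 fold changes of -0.90 (adjusted p = 0.0044) and -2.66 (adjusted p = 1.15e-05).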
